A study of Rattus norvegicus with 20 samples.

Results

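The galectin family was followed through 5 regions of the injured rat nervous system, from the white matter under a cortical electrode to the cervical cord below a contusion. The 7 members were the rows of the deposited expression table that carry the gene names Lgals1, Lgals3, Lgals3bp, Lgals4, Lgals5, Lgals8 and Lgals9, out of 30443 genes in the table. None of these names occurred more than once. The identifiers of the 5 members that were well detected are ENSRNOG00000009884 (Lgals1), ENSRNOG00000010645 (Lgals3), ENSRNOG00000003217 (Lgals3bp), ENSRNOG00000018046 (Lgals8) and ENSRNOG00000012681 (Lgals9). Of the 7 genes, 6 encode galectins and Lgals3bp encodes a secreted glycoprotein that galectins bind. Lgals3 is one of the genes that the study itself picked from region 1 of these same samples, so its level there is not independent evidence.

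Libraries were made from the total RNA of 4 adult female Long-Evans rats of wild-type genotype, about 6 to 8 months old. Every animal, controls included, had a hemicontusion at cervical level 4 with a displacement of 0.7 mm and was implanted 2 weeks later with cortical electrodes over the motor area across from the injured side. The sample labels also give every animal, controls included, a test of movement threshold 1 week after the implant. In this test, pulses were passed through the electrode wires to find the current that moved the forelimb. The 2 stimulated animals then received cortical pulses at 10 Hz, 5 hours a day, in cycles of 5 minutes on and 2 minutes off. Their current was 80% of the current that moved the forelimb. During that period the 2 control animals were connected to a sham device that gave no current. The sample labels give 1 week of stimulation and the methods a shorter time. No animal was without injury or implant, so changes that both groups share relative to an intact rat were not measured. Under the electrodes, about 5 mm3 of white matter was cut out as region 1, and its mirror image in the hemisphere without electrodes as region 2, while the cord was sampled rostral to the lesion (region 3), at its center (region 4) and caudal to it (region 5). Each region thus had 4 libraries, 1 from each animal.

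Galectins are lectins that bind beta-galactoside sugars on glycoproteins, and they work both outside and inside the cell. Galectin-1 pairs with itself through a single type of sugar-binding domain, galectin-3 carries a flexible tail through which it forms lattices, and galectins 4, 8 and 9 join 2 different sugar-binding domains in one chain. In the nervous system, galectin-3 is best known from activated microglia and macrophages that clear myelin, and galectin-1 from astrocytes, motor and sensory neurons.

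The expression unit is FPKM, a count of sequenced fragments scaled to transcript length and library size, which allows levels of different genes to be set side by side. Values below 0.1 stand at 0.1 in the table. A gene was tested if it reached 1 FPKM in any library, and 15210 genes did, 5 of the 7 members among them. Lgals4, a galectin of the gut lining, stood at 0.1 in all 20 libraries. So did Calcoco2, a widely expressed autophagy gene, and Col1a2, although Col1a1, which encodes the other chain of the same collagen, was at 1.09 to 38.9 FPKM. A value of 0.1 in this table thus need not mean a low level. Lgals5, a rat galectin found in red blood cells, was above 0.1 in 6 libraries and never reached 1 FPKM.

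Lgals5 and Lgals9 are neighbors, and their upstream sequences are shown because long stretches of them align, although only Lgals9 was well detected. In the RefSeq annotation of assembly GRCr8, which is later than the Rnor6 assembly of the expression table, only the pseudogene Nos2-ps1 lies between them. RefSeq promoters, taken here as the 250 bases before the annotated start, were found for 5 of the 7 members. Those of Lgals1 and Lgals3 were not among them. The windows below are written 5′ to 3′ on the strand of the gene. Those of Lgals9 and Lgals5 are only the stretches of the 250 bases that aligned to each other. Those of Lgals3bp and Lgals8 are stretches around a motif match. Capitals mark matches to 4 motifs that were searched on both strands and did not overlap. These were AP-1, with the letters TGANTCA, and GATA, with the letters AGATAA. The other 2 were the interferon-response motif ISRE, which is GAAA on either side of 2 bases of any kind, and the E-box, which reads CACGTG. These motifs were chosen after the sequences had been seen.
Lgals9: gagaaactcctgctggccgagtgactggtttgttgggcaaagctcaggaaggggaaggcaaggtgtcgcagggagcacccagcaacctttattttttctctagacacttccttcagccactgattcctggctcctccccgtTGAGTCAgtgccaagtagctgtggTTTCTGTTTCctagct
Lgals5: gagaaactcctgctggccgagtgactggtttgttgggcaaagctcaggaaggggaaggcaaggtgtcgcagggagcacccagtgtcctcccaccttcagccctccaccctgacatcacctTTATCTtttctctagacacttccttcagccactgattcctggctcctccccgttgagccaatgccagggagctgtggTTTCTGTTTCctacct
Lgals3bp: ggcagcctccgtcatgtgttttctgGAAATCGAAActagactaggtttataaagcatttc
Lgals8: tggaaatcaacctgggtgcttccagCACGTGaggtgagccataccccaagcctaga
The Lgals9 window lies at chr10:64428071-64428251 on the minus strand and ends at the base before its start. The Lgals5 window lies at chr10:64355175-64355387 on the minus strand and ends 38 bases before its start. Aligned to each other, they shared 175 identical bases, with 6 mismatches and 32 gap positions over a length of 213, an identity of 82.2%. The AP-1 match stood 40 to 34 bases before the start of Lgals9 and had no match in the Lgals5 window, which held a GATA match 130 to 125 bases before its start that Lgals9 lacked. Both carried the ISRE letters, and so did Lgals3bp, 50 to 41 bases before its start, in the window at chr10:104127864-104127923 on the minus strand. The Lgals8 window, at chr17:62719621-62719676 on the plus strand, held the E-box 207 to 202 bases before the start. Over the same 250 bases of the 33469 rat promoters in the table, 6.34% held AP-1, 10.3% GATA, 3.41% ISRE and 5.59% the E-box. A match describes letters only and does not show that a factor binds.

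Some facts of the libraries bear on what follows. The white matter blocks, dissected to leave out the cortex, held 3 markers of cortical excitatory neurons (Slc17a7, Tbr1 and Neurod6) at a summed level of 249 to 363 FPKM, against 1.26 to 14.3 FPKM in the cord. All 5 myelin markers were present in every block, at sums of 672 to 2803 FPKM in white matter and 7103 to 10417 FPKM in cord. In region 2, the library of stimulated animal 2 stood apart from the other 3 in 7 microglia and macrophage markers. These summed to 275 FPKM there and to 35.9 to 41.9 FPKM in the others. The sum of 5 astrocyte markers was 1020 against 262 to 315 FPKM, mostly through Gfap, at 678 against 70.1 to 91.4 FPKM. Aqp4 was at 106 against 40.1 to 51.9 FPKM and Gja1 at 92.0 against 53.4 to 70.4 FPKM. Slc1a3 was at 138 against 93.9 to 119 FPKM and Aldh1l1 at 6.07 against 4.69 to 5.93 FPKM. T cell markers summed to 4.50 and 3.04 FPKM in regions 1 and 2 of that animal and to at most 0.582 FPKM in any other library. Values are therefore also given without this animal where it changed a call. In pieces of tissue, fewer cells of a type and less RNA in each cell cannot be told apart.

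Lgals3 and Lgals1 were the most abundant members, each with a mean above 97% of the genes tested over all libraries. Lgals3 encodes galectin-3. Its level in control 1, control 2, stimulated 1 and stimulated 2, in this order, was 16.5, 16.8, 32.8 and 67.8 FPKM in region 1. In region 2 it was 1.54, 1.05, 0.620 and 13.9 FPKM. The 3 libraries of region 2 other than that of stimulated animal 2 held the lowest levels of the gene in the series. In the cord, Lgals3 stood at 74.7, 42.5, 55.0 and 44.1 FPKM in region 3 above the lesion. At the lesion, region 4, it stood at 271, 208, 215 and 123 FPKM. In region 5 below the lesion it stood at 190, 177, 166 and 182 FPKM. Regions 4 and 5 overlapped with each other and lay clear of region 3, which in turn overlapped with region 1 through stimulated animal 2. By region means the order was 4, 5, 3, 1 and 2, at 204 ± 61.2, 179 ± 10.4, 54.1 ± 14.8, 33.5 ± 24.1 and 4.29 ± 6.44 FPKM (SD, n = 4).

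Lgals1, which encodes galectin-1, had a different order. In the same order of animals it was 26.5, 15.2, 34.2 and 50.96 FPKM in region 1. It was 13.4, 6.79, 10.2 and 24.7 FPKM in region 2. The levels of region 2 reached into those of region 1, but each animal had more Lgals1 in region 1. In the cord, Lgals1 stood at 118, 56.5, 86.7 and 93.4 FPKM in region 3. It stood at 184, 90.1, 141 and 127 FPKM in region 4. It stood at 187, 116, 178 and 254 FPKM in region 5. The gene was thus highest below the lesion, with a mean of 184 ± 56.4 FPKM against 135 ± 38.7 in region 4 and 88.6 ± 25.3 in region 3 (SD, n = 4), and neighboring regions of the cord overlapped. Every white matter library was below every cord library.

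Lgals3bp, the gene of the galectin-3-binding protein, had its highest region means at the lesion and in region 1. It stood at 12.0, 9.31, 12.9 and 23.0 FPKM in region 1. It stood at 2.67, 1.64, 2.28 and 20.1 FPKM in region 2. As for Lgals3, stimulated animal 2 was far above the other 3 libraries in region 2. In the cord it stood at 9.41, 7.05, 7.96 and 7.68 FPKM in region 3 and at 23.4, 12.0, 17.6 and 8.87 FPKM in region 4. In region 5 it stood at 13.3, 8.75, 9.70 and 12.8 FPKM. The levels of region 1 thus overlapped with those of the lesion and of region 5, and neighbors in the order of region means (4, 1, 5, 3 and 2) all overlapped.

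Lgals8 and Lgals9 encode galectins with paired sugar-binding domains. Galectin-8 marks damaged endosomes and lysosomes for removal, and galectin-9 is a ligand of the immune receptor encoded by Havcr2. Lgals8 varied little within a region, from 10.2 to 12.6 FPKM in region 1, 8.06 to 12.9 in region 2, 16.7 to 18.7 in region 3, 17.7 to 22.7 in region 4 and 20.9 to 25.5 in region 5. As for Lgals1, every white matter library was below every cord library, and the mean was highest in region 5, at 22.9 ± 1.96 FPKM (SD, n = 4). Lgals9 was the flattest of the detected members, at 3.56 to 4.59 FPKM in region 1, 2.24 to 4.10 in region 2, 3.82 to 5.46 in region 3, 4.42 to 5.52 in region 4 and 4.20 to 6.00 in region 5. Neighboring regions overlapped throughout for Lgals9. Where reads of Lgals5, Lgals9 and the pseudogenes Lgals9-ps1 and Lgals9-ps2 could not be told apart, their levels are uncertain, and the same holds for Lgals1 and Lgals1-ps2 and for Lgals8 and Lgals8-ps1.

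**Figure D1:**
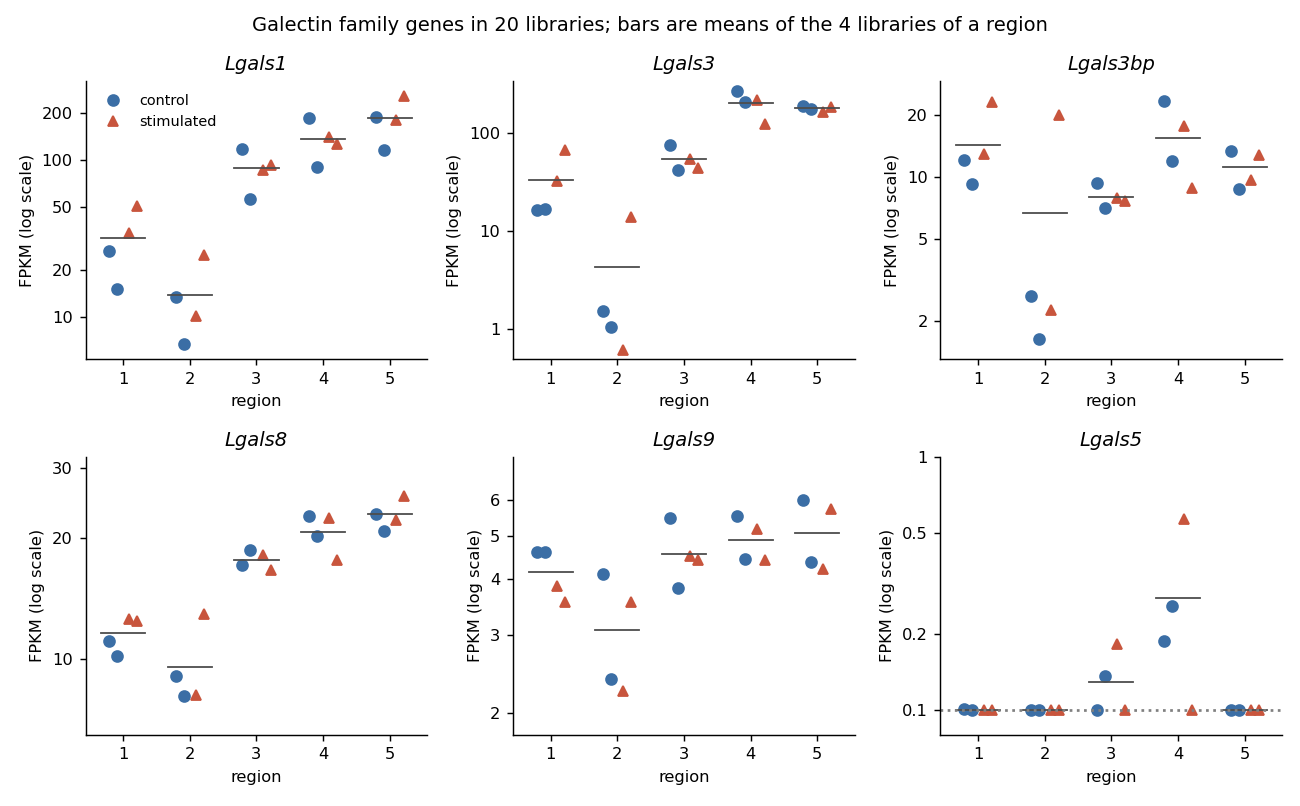
FPKM of 6 members (log axis, with a different range in each panel) by region, with a point for each of the 4 animals and a bar for the mean of a region. Lgals3 spans 0.620 to 271 FPKM and Lgals9 only 2.24 to 6.00 FPKM. The dotted line in the Lgals5 panel is the floor of 0.1 FPKM. Lgals4, at the floor throughout, is not drawn.

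Lgals5 rose above the floor in 3 of the 4 libraries of region 4, at 0.188, 0.258 and 0.5679 FPKM, in 2 of region 3, at 0.136 and 0.182 FPKM, and in 1 of region 1, at 0.102 FPKM. It was at the floor in all libraries of regions 2 and 5. These levels lie close to the floor and were not tested. The library with most Lgals5, region 4 of stimulated animal 1, also had the highest sum of 4 red cell markers, 209.7 FPKM against 2.09 to 126 FPKM in the other 19. Alas2, the red cell enzyme that starts heme synthesis, was 1.60 FPKM there and at most 1.02 FPKM elsewhere. The other libraries did not keep this order. Region 4 of control 1 had 0.188 FPKM of Lgals5 at a red cell sum of 17.3 FPKM, while region 5 of stimulated animal 1 had Lgals5 at the floor at a sum of 67.1 FPKM. Lgals9 was 5.18 FPKM in region 4 of stimulated animal 1, within the range of its region. The part of red cells in these values was not tested.

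Between white matter and cord, 4 of the 5 members tested were lower in white matter by limma on log2 FPKM of all 20 libraries (adjusted p under 0.05). Lgals3 differed by -4.06 ± 0.42 on the log2 scale (SE), white matter minus cord, with an adjusted p of 6.45e-08. Lgals1 differed by -2.74 ± 0.24 (adjusted p = 7.54e-09) and Lgals8 by -0.97 ± 0.08 (adjusted p = 2.91e-09). Lgals9 differed by -0.45 ± 0.12, with an adjusted p of 0.00177. Lgals3bp did not pass, at -0.60 ± 0.35 (adjusted p = 0.125), but was -1.19 without stimulated animal 2, with an adjusted p of 1.64e-05, where 77.3% of all genes were called. This comparison called 72.2% of all genes tested, 47.1% as lower and 25% as higher, so a call by itself sets no member apart. Every white matter library was below every cord library for Lgals1 and Lgals8, which held for 16.8% of all genes, and Lgals3, Lgals3bp and Lgals9 overlapped. The median difference of all genes was -0.18.

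Markers of several cell types differed between the same tissues. Of 7 microglia and macrophage markers, 6 were lower in white matter, with sums of 35.9 to 426 FPKM there and 98.1 to 822 FPKM in cord. Of 5 astrocyte markers, 4 were lower, with sums of 262 to 1223 and 1227 to 2704 FPKM. Gfap alone ran from 70.1 to 884 and from 823 to 2159 FPKM. The remaining marker, Slc1a3, was higher in white matter, at 93.9 to 145 against 36.0 to 55.1 FPKM. All 4 Schwann cell markers were lower, with sums of 0.488 to 2.17 and 13.8 to 236 FPKM, and Ncmap was at 0.1 in all white matter libraries. Their part in the galectin differences was not tested.

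The white matter under the electrode was then compared with the matching block of the other hemisphere. In every animal region 1 was both the implanted side and the side across from the injury. The implant and the side of the injury therefore cannot be told apart in this comparison. Lgals3 was higher in region 1 in all 4 animals, by 10.7, 15.9, 52.9 and 4.87-fold in control 1, control 2, stimulated 1 and stimulated 2. The log2 difference was 3.86 ± 0.65 (SE), with an adjusted p of 0.00300 by limma. Lgals3bp was higher by 4.52, 5.67 and 5.67-fold in the first 3 animals and by 1.14-fold in stimulated animal 2, for a log2 difference of 1.84 ± 0.53 and an adjusted p of 0.0408. These 2 of 5 members were called, where 6.86% of all genes were called as higher and 8.61% in either direction. Lgals1 was higher by 1.97 to 3.34-fold in all 4 animals and missed the threshold, at 1.23 ± 0.38 on the log2 scale (adjusted p = 0.0507). Lgals9 was higher in all 4 animals, at 0.47 ± 0.18 (adjusted p = 0.105), although only by 1.00-fold in stimulated animal 2. Lgals8 was higher in 3 of 4 animals, at 0.30 ± 0.13 (adjusted p = 0.143). A rise in all 4 animals was seen for 22.2% of all genes tested.

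A fit with the animal as a block called 4 of 5 members and 12.2% of all genes, since Lgals1 and Lgals9 joined with adjusted p of 0.00334 and 0.0399. Without stimulated animal 2, Lgals1, Lgals3, Lgals3bp and Lgals8 passed, with log2 differences of 1.29, 4.38, 2.39 and 0.42 and adjusted p of 0.0242, 6.11e-06, 4.60e-05 and 0.00242, where 24.2% of all genes were called. Leaving out control 1, control 2 or stimulated 1 left 0 members, with adjusted p of 0.0520, 0.0615 and 0.136 for Lgals3, and 0.625%, 0.638% and 0.171% of all genes. Fitted on the 8 libraries of these regions alone, the comparison called 0 members and 0% of genes, with an adjusted p of 0.209 for Lgals3. With the animal as a block in that fit it called Lgals1 and Lgals3, among 8.69% of all genes. The call of Lgals3bp was also lost on log2(FPKM + 1) (adjusted p = 0.0573) and without a filter on low values (adjusted p = 0.114), where 6.32% and 2.29% of all genes were called. After quantile normalization and upper-quartile scaling Lgals1 passed too, with adjusted p of 0.0464 and 0.0407, among 11.7% and 14.8% of all genes. All 5 oligodendrocyte markers were also higher in region 1, as were 2 of 7 microglia and macrophage markers, 2 of 5 astrocyte markers and all 4 fibroblast markers tested. Microglia and macrophage markers summed to 123 to 426 FPKM in region 1 and 35.9 to 275 FPKM in region 2, and none of the 7 was at 0.1 in all libraries of a region. Their part in the galectin differences was not tested.

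At the lesion, Lgals3 was the one member called against the cord above it. It was higher in region 4 than in region 3 by 3.63, 4.89, 3.92 and 2.78-fold in control 1, control 2, stimulated 1 and stimulated 2. The log2 difference was 1.90 ± 0.65 (SE), with an adjusted p of 0.0480 by limma. This 1 call among 5 members stands beside 6.78% of all genes called as higher and 19.6% in either direction. The other 4 members were also higher in region 4 in every animal, which held for 24.1% of all genes, but did not pass. Lgals1 differed by 0.61 ± 0.38 (adjusted p = 0.266) and Lgals3bp by 0.86 ± 0.53 (adjusted p = 0.270). Lgals8 differed by 0.23 ± 0.13 (adjusted p = 0.207) and Lgals9 by 0.11 ± 0.18, with a 95% interval from -0.27 to 0.48.

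Lgals1 passed with the animal as a block, with an adjusted p of 0.0474, where 24% of all genes did. Without stimulated animal 2, Lgals3, Lgals3bp and Lgals8 passed, with adjusted p of 0.000595, 0.00582 and 0.0206, where 32.3% of all genes did. Leaving out control 1, control 2 or stimulated 1 left 0 members, with adjusted p of 0.181, 0.252 and 0.141 for Lgals3, and 6.41%, 3.44% and 9.15% of all genes. Fitted on these 2 regions alone, Lgals3 had an adjusted p of 0.00386, where 28.4% of all genes were called. With the animal as a block in that fit, Lgals1 and Lgals3bp joined it with adjusted p of 0.00661 and 0.0294, among 29.7% of all genes. The call of Lgals3 was lost without a trend in limma (adjusted p = 0.0583) and without a filter on low values (adjusted p = 0.124), where 18.9% and 7.4% of all genes were called. After quantile normalization and upper-quartile scaling Lgals8 joined Lgals3, among 31.8% and 30.3% of all genes. Of the microglia and macrophage markers, 5 of 7 were higher in region 4, with sums of 309 to 822 FPKM against 98.1 to 154 FPKM in region 3. All 4 Schwann cell markers were higher too, at 78.8 to 118 against 13.8 to 64.5 FPKM. Of 4 neuron markers, 3 were lower in region 4, with sums of 502 to 627 against 745 to 957 FPKM, as were 2 of the 3 cortical excitatory neuron markers. The part of these cell types in the level of Lgals3 was not tested.

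Below the lesion, Lgals3 and Lgals1 were higher in region 5 than in region 3 in all 4 animals, by 2.55 to 4.16-fold and by 1.59 to 2.72-fold, but no member was called by limma, where 4.32% of all genes were, 2.77% as higher. Lgals3bp and Lgals8 were also higher in all 4, as were 31.9% of all genes, and Lgals9 was higher in 3. The log2 differences were 1.76 ± 0.65 for Lgals3 (adjusted p = 0.119) and 1.05 ± 0.38 for Lgals1 (adjusted p = 0.112). For Lgals8 the difference was 0.37 ± 0.13 (adjusted p = 0.0916), and for Lgals3bp and Lgals9 it was 0.46 ± 0.53 and 0.15 ± 0.18. Unadjusted p were 0.0146 for Lgals3, 0.0127 for Lgals1 and 0.00798 for Lgals8. With the animal as a block, Lgals1 passed with an adjusted p of 0.0122, among 6.09% of all genes. On the 8 libraries of these regions alone, a fit chosen after seeing that the spread of Lgals3 in the shared model comes largely from region 2, Lgals1, Lgals3 and Lgals8 passed with adjusted p of 0.0358, 0.00401 and 0.0112, among 21.8% of all genes. With the animal as a block in that fit, Lgals1, Lgals3 and Lgals3bp passed with adjusted p of 0.0216, 0.0212 and 0.0412, among 12.8% of all genes, and Lgals8 did not (adjusted p = 0.0531). Without stimulated animal 2, Lgals3 and Lgals8 passed with adjusted p of 0.0124 and 0.0462, among 8.13% of all genes. Leaving out control 1, control 2 or stimulated 1 left 0 members and 0.894%, 0.664% and 0.355% of all genes. All 4 Schwann cell markers were higher in region 5 than in region 3, with sums of 86.5 to 236 against 13.8 to 64.5 FPKM. Of 3 spinal motor neuron markers tested, 2 were higher, and all 4 listed summed to 36.3 to 39.7 against 16.8 to 20.9 FPKM. Of 4 sensory neuron markers, 1 was higher, with sums of 90.6 to 138 against 35.6 to 44.6 FPKM. Of 7 microglia and macrophage markers, 0 passed, with sums of 254 to 340 against 98.1 to 154 FPKM. Their part in the levels of Lgals1 and Lgals3 was not tested.

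Regions 4 and 5 were not told apart by any member, where 7.99% of all genes were called, 7.06% as lower in region 4. For Lgals3 the log2 difference, region 4 minus region 5, was 0.14 with a 95% interval from -1.23 to 1.51. For Lgals1 it was -0.43, with an interval from -1.23 to 0.36. None of the 5 members had an unadjusted p under 0.05. Lgals1 was higher in region 5 in all 4 animals, as were 29.9% of all genes, whereas Lgals3 was higher in region 4 in 3 of 4.

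**Figure D2:**
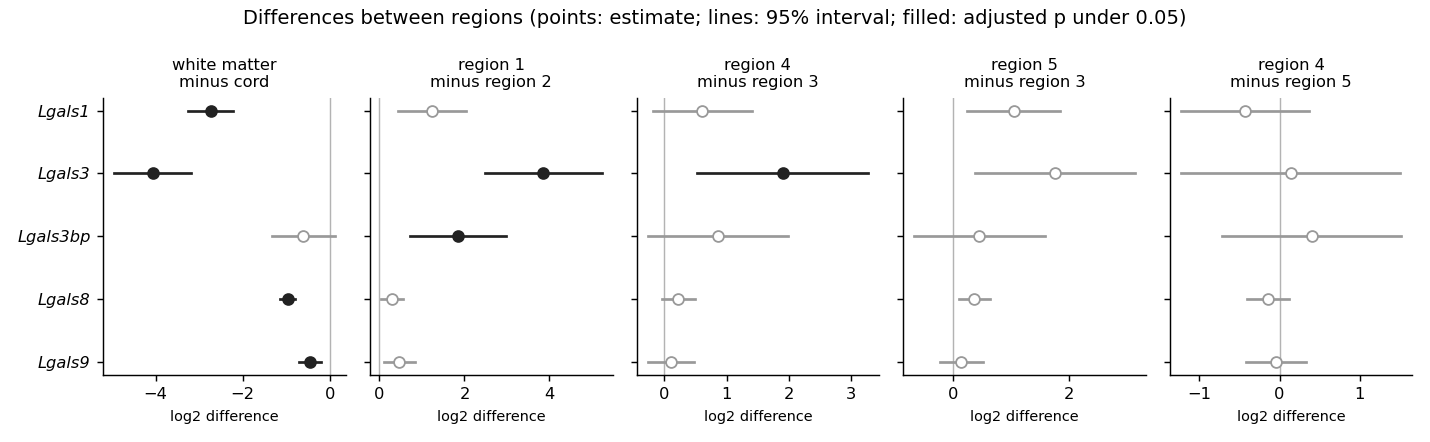
Differences between regions for the 5 members tested, in log2 FPKM (each panel has its own x axis), with the limma estimate as a point and its 95% interval as a line. Filled points have an adjusted p under 0.05. The 4 filled points of the first panel lie below 0, Lgals3 and Lgals3bp are filled for region 1 minus region 2, and Lgals3 alone for region 4 minus region 3.

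These opposite leanings appear in the ratio of Lgals3 to Lgals1 within each library, a quantity that does not depend on scaling between libraries. In region 4 the ratio was 1.48, 2.31, 1.53 and 0.969 in control 1, control 2, stimulated 1 and stimulated 2. In region 5 it was 1.02, 1.52, 0.930 and 0.719, and in region 3 it was 0.634, 0.752, 0.634 and 0.472. Within the cord of each of the 4 animals the ratio was highest in region 4, lower in region 5 and lower still in region 3. In white matter it was 0.622 to 1.33 in region 1 and 0.0605 to 0.564 in region 2, and higher in region 1 in all 4 animals. In stimulated animal 2 the ratio of 1.33 in region 1 was above the 0.969 of region 4. Over 4 pairs, an exact permutation test cannot go below p = 0.125. As a share of the summed FPKM of the 5 detected members, Lgals8 made up 29.4% to 40.4% and Lgals3 2.64% to 5.28% in the 3 libraries of region 2 other than that of stimulated animal 2. In region 4, Lgals3 made up 43.8% to 62.1% and Lgals8 4.49% to 6.30%. The sum itself ran from 19.9 FPKM in region 2 to 506 FPKM in region 4.

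**Figure D3:**
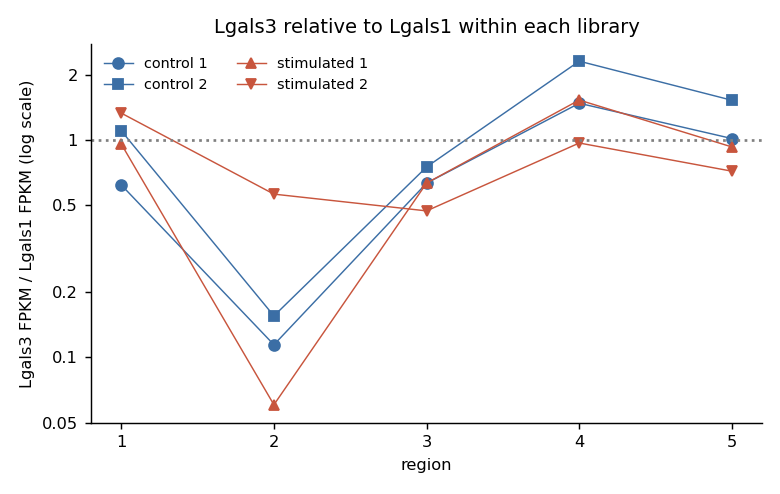
Ratio of Lgals3 to Lgals1 FPKM (log axis) in each region, with a line for each animal. All 4 lines fall from region 1 to region 2 and peak within the cord at region 4, where the ratio is 0.969 to 2.31. The dotted line marks equal levels.

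The effect of stimulation was sought in each region between the 2 stimulated and the 2 control libraries. No member was called in any region by limma. Over all genes tested, 0% were called in regions 1 to 4 and 0.0197% in region 5. Without adjustment, a p under 0.05 was reached by 828, 215, 522, 341 and 546 genes in regions 1 to 5. In region 1, under the electrode, both stimulated libraries were above both control libraries for Lgals1, Lgals3, Lgals3bp and Lgals8, as for 21.2% of all genes. For Lgals9 they were below, at 3.87 and 3.56 FPKM against 4.59 and 4.59 FPKM, as for 19.5% of all genes. In regions 2 to 5 stimulated and control libraries overlapped for all 5 members. Lgals4 was at the floor in both groups.

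In region 1 the log2 difference, stimulated minus control, was 1.504 ± 0.39 (SE) for Lgals3 and 1.06 ± 0.37 for Lgals1. It was 0.70 ± 0.34 for Lgals3bp, 0.24 ± 0.11 for Lgals8 and -0.31 ± 0.14 for Lgals9. All 5 had an adjusted p of 0.712. Lgals3 and Lgals1 had unadjusted p of 0.0200 and 0.0483. With 2 libraries against 2, an exact permutation test of a single gene cannot go below p = 0.333. Lgals3 passed in 1 of the 4 fits that left out an animal, without stimulated animal 1, where the lone stimulated library is assumed to vary like the others (log2 difference 2.03, adjusted p = 0.0136, among 1.5% of all genes). The 5 astrocyte markers summed to 645 and 695 FPKM in the control libraries of region 1 and to 1071 and 1223 FPKM in the stimulated ones. Of these 5, 4 had a positive log2 difference, and Gfap alone was at 353 and 410 against 680 and 884 FPKM. The 7 microglia and macrophage markers summed to 123 and 129 FPKM in the control libraries and to 251 and 426 FPKM in the stimulated ones. One of the 7, Gpnmb, was picked by the study from region 1 of these samples, as Lgals3 was, and without it the other 6 summed to 96.8 and 108 against 163 and 289.7 FPKM. The 4 neuron markers summed to 1107 and 1111 FPKM in the control libraries and to 1034 and 716 FPKM in the stimulated ones. Of these 4, 1 had a positive log2 difference. The 3 cortical excitatory neuron markers summed to 352 and 363 against 283 and 249 FPKM. Sums of the 5 oligodendrocyte markers overlapped, at 1659 and 1819 against 2803 and 1459 FPKM. The part of these cell types in the higher Lgals3 and Lgals1 was not tested.

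In region 2 the log2 difference of Lgals3 was 1.21 ± 1.71 and that of Lgals3bp 1.69 ± 1.22. Both rest on stimulated animal 2, without which they were -1.04 and 0.12. In the cord, the differences of Lgals3 were -0.19 ± 0.33, -0.55 ± 0.37 and -0.08 ± 0.13 in regions 3, 4 and 5, with 95% intervals from -1.14 to 0.75, -1.57 to 0.48 and -0.43 to 0.28. Those of Lgals1 were 0.14 ± 0.40, 0.06 ± 0.40 and 0.53 ± 0.32. In region 5, the 4 Schwann cell markers summed to 236 and 233 FPKM in the stimulated libraries and to 109 and 86.5 FPKM in the control ones. The 4 sensory neuron markers summed to 114 and 138 against 94.2 and 90.6 FPKM. None of these markers was called there, and their part in the Lgals1 difference was not tested. Lgals3bp differed by at most 0.42 in size in the cord, Lgals8 by at most 0.12 and Lgals9 by at most 0.06. Adjusted p were between 0.961 and 1 for all 5 members in the cord.

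Whether stimulation acted differently under the electrode and in the other hemisphere was tested on differences within each animal. The change of Lgals3 in region 1 minus that in region 2 was 0.30 ± 1.20 (SE) on the log2 scale, with a 95% interval from -2.97 to 3.57. That of Lgals3bp was -0.99 ± 0.81 and that of Lgals1 0.32 ± 0.27. Those of Lgals8 and Lgals9 were -0.02 ± 0.26 and -0.16 ± 0.42. No member passed, with adjusted p from 0.884 to 0.987 by limma, and 0% of all genes were called, while 575 had an unadjusted p under 0.05 and none of the 5 members did. The 95% intervals of all 5 members included 0.

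**Figure D4:**
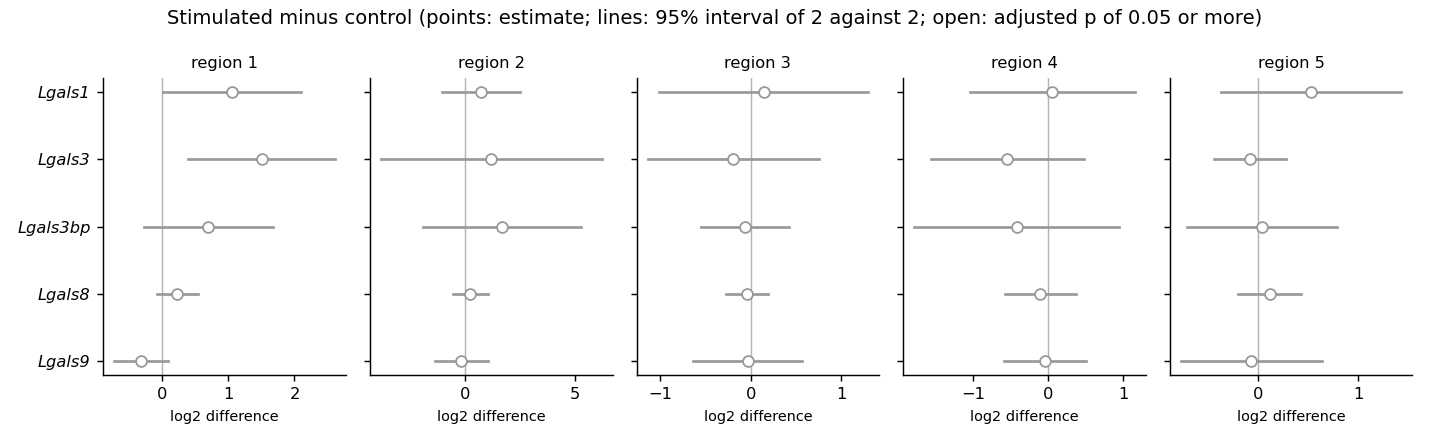
Stimulated minus control in each region for the 5 members tested, in log2 FPKM (each panel has its own x axis), with the limma estimate as a point and its 95% interval as a line. All points are open, since no adjusted p was under 0.05. In region 1 the 4 points for Lgals1, Lgals3, Lgals3bp and Lgals8 lie above 0 and that for Lgals9 below.

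The likeness of the other members to Lgals3 was described by Pearson's r of log2 FPKM over the 20 libraries, which share animals and tissues. It was 0.931 for Lgals1, above that of 96.5% of the genes tested, and 0.926 for Lgals8, above 95.9%. Lgals9 and Lgals3bp followed at 0.788 and 0.787, above 78.3% and 78.2% of genes. By Spearman's rho the values were 0.902, 0.901, 0.687 and 0.553 for Lgals1, Lgals8, Lgals9 and Lgals3bp, the last above only 59.0% of genes. The median r of all genes was 0.41, so that a high r with Lgals3 was common in these data. Thus 2 of the 4 other detected members were more like Lgals3 than 90% of genes. Within the 8 white matter libraries the order turned, with Lgals3bp first at 0.947, above 97.2% of genes, then Lgals8 at 0.917, Lgals1 at 0.909 and Lgals9 at 0.666. Within the 12 cord libraries r was 0.801, 0.791, 0.721 and 0.494 for Lgals3bp, Lgals8, Lgals1 and Lgals9, and none of them was above 90% of genes. Without stimulated animal 2, r over the 15 remaining libraries was 0.942, 0.951, 0.893 and 0.803 for Lgals1, Lgals8, Lgals3bp and Lgals9, where the median of all genes was 0.53. These were above 93.1%, 95.02%, 82.9% and 69.5% of genes. Over the 6 white matter libraries without that animal, Lgals1 was at 0.866, above 81.0% of genes, and Lgals3bp at 0.971, above 96.8%, against a median of 0.51.

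The genes most like Lgals3 over the 20 libraries were none of its own family. They were Cd44, a hyaluronan receptor and galectin ligand, at an r of 0.990, Plod1, a collagen lysyl hydroxylase, at 0.990, Sh3d19 at 0.990, the tetraspanin gene Cd9 at 0.989 and the receptor gene Notch2 at 0.988. Gfap, the intermediate filament of reactive astrocytes, was at 0.985, and the microglial receptor gene Trem2 at 0.906. Of the other astrocyte markers, Aqp4, Gja1 and Aldh1l1 were at 0.945, 0.867 and 0.681, and Slc1a3 was at -0.717. The microglia and macrophage markers ran from 0.774 for Cd68 to 0.909 for Gpnmb. Within a tissue, mostly other genes came first. Over the 8 white matter libraries, the 5 genes most like Lgals3 were Lima1, Sh3d19, Atf3, Ano6 and Cav2. Over the 12 cord libraries they were Mdfic, Pdpn, Sulf1, Cd44 and Timp1. Cd44 and Gpnmb were picked by the study from region 1 of these samples, as Lgals3 was.

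**Figure D5:**
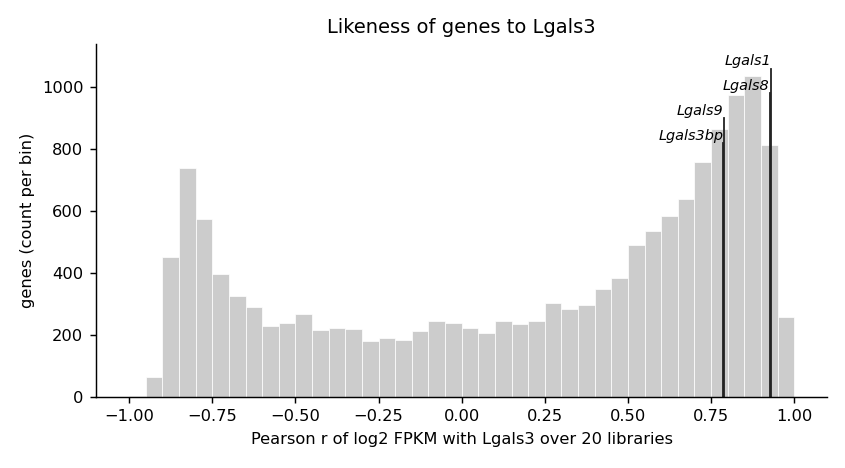
Number of genes in bins of Pearson's r of log2 FPKM with Lgals3 over the 20 libraries, with a line for each of the 4 other detected members. Lgals1 and Lgals8 lie at 0.931 and 0.926 and Lgals9 and Lgals3bp at 0.788 and 0.787, all right of the median of 0.41.

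Galectins act through glycoproteins, and 23 of 25 listed galectin partners, that is receptors, ligands and sensors of damage, were tested. Of these, Itgam and Ptprc also stand in the list of microglia and macrophage markers. Between white matter and cord, 17 were lower in white matter and 3 higher, where 47.1% and 25% of all genes were, with a median of -0.81 against -0.18 for all genes. Those with the largest differences were Cd44 at -2.22 ± 0.28 (SE), Trim16, which works with galectin-3 on damaged lysosomes, at -1.98 ± 0.08, Havcr2 at -1.40 ± 0.18 and the integrin gene Itgam at -1.29 ± 0.41. Mertk, a receptor for dying cells, was among the 3 that were higher in white matter, at 0.21 ± 0.09 (adjusted p = 0.0490 by limma). Region 1 had 8 partners higher than region 2 and 0 lower, where 6.86% and 1.76% of all genes were, with a median of 0.37 against 0.06 for all genes. The largest were Cd44 at 2.22 ± 0.43, the extracellular matrix gene Fn1 at 1.88 ± 0.44, Trem2 at 1.08 ± 0.32 and the lysosomal membrane gene Lamp2 at 0.67 ± 0.18. Blocking by animal raised this count to 13, where 9.63% of all genes were higher, and leaving out stimulated animal 2 to 16, where 21.6% were. It was 0 without control 1, control 2 or stimulated 1, where 0.46%, 0.368% and 0.0855% of all genes were higher.

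At the lesion, 7 partners were higher than in region 3 and 1 was lower, where 6.78% and 12.8% of all genes were, with a median of 0.52 against -0.02 for all genes. Ptprc, the leukocyte antigen CD45, differed by 1.92 ± 0.60 and Trem2 by 1.70 ± 0.32. Havcr2 differed by 0.92 ± 0.28 and Mertk by 0.87 ± 0.15. Without stimulated animal 2 the count of higher partners was 14, where 15.7% of all genes were higher. It was 2, 1 and 2 without control 1, control 2 and stimulated 1, where 1.37%, 0.874% and 1.45% were. Region 5 had 1 partner higher than region 3, the integrin gene Itgb1 at 0.66 ± 0.18, where 2.77% of all genes were higher. This count was 8 without stimulated animal 2 and 2 with the animal as a block, where 5.4% and 4.05% of all genes were higher, and 0 without any other animal. Between regions 4 and 5, Trim16 at -0.53 ± 0.12 and L1cam, a neural adhesion gene, at -0.40 ± 0.10 were lower in region 4, as were 7.06% of all genes. This count was 0 without control 1 or control 2, where 0.0329% and 0.145% of all genes were lower. Stimulation moved 0 of 23 partners in any region by limma, with 5 at an unadjusted p under 0.05 in region 1 and 0 in the others. One of the 5 was Cd44, which the study also picked from region 1 of these samples.

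The sugars that galectins bind are built, branched and capped by enzymes of which 14 were listed and tested. In white matter against cord, 6 were lower and 3 higher, with a median of -0.15 against -0.18 for all genes. These shares of 14 are close to the 47.1% and 25% of all genes, so the counts do not set the enzymes apart. The lower count was 4 without control 1 and 9 without stimulated 2, where 40.1% and 51.1% of all genes were lower. St3gal4 and St6gal1, which encode enzymes that cap galactose with sialic acid, were lower in white matter, with log2 differences of -1.29 ± 0.10 and -0.80 ± 0.10. Glb1, the lysosomal beta-galactosidase, differed by -1.03 ± 0.16 and Gcnt1, which starts a branch on O-linked sugars, by -0.87 ± 0.21. Region 1 had 2 higher than region 2, St6gal1 at 0.59 ± 0.15 and the sialidase gene Neu1 at 0.27 ± 0.08, where 6.86% of all genes were higher. The count was 6 without stimulated animal 2, where 21.6% were, and 0 without any other animal. At the lesion, Gcnt1 at 1.21 ± 0.32, Gcnt2 at 0.79 ± 0.15 and Glb1 at 0.79 ± 0.24 were higher than in region 3, and Mgat3 was lower at -0.35 ± 0.11, where 6.78% and 12.8% of all genes were. The counts were 1 higher and 0 lower without control 1, control 2 or stimulated 1, where 0.874% to 1.45% of all genes were higher, and 6 higher without stimulated 2, where 15.7% were. Gcnt2 was also higher in region 5 than in region 3, at 1.03 ± 0.15, where 2.77% of all genes were higher, a count that was 4 without stimulated 2, where 5.4% were. Mgat3 was lower in region 4 than in region 5, at -0.40 ± 0.11, as were 7.06% of all genes. This call was lost without control 1, control 2 or stimulated 1, where 0.0329%, 0.145% and 5.56% of all genes were lower. Stimulation moved 0 of 14 in any region by limma, with 2 at an unadjusted p under 0.05 in region 1 and 0 in the others.

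Of 5 further galectin genes in the table, Lgals2, Lgals7 and Lgals12 never reached 1 FPKM. The other two, which are galectin-related genes, went opposite ways. Lgalsl was higher in white matter, at 15.9 to 23.5 FPKM against 9.19 to 13.7 FPKM in cord and a log2 difference of 0.86 ± 0.07 (SE), with an adjusted p of 1.06e-09 by limma. Its r with Lgals3 was -0.84. Grifin, which encodes a lens protein of the galectin fold, was lower in white matter, at 0.189 to 1.84 FPKM against 2.13 to 10.4 FPKM and a log2 difference of -3.24 ± 0.42, with an adjusted p of 1.16e-06. Neither differed between regions of a tissue or with stimulation at an adjusted p under 0.05.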

How the data were processed

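RNA-seq of 20 libraries (5 regions of 4 rats) was analysed from the FPKM table that the authors deposited. The authors sequenced read pairs, aligned them to Rnor6 with TopHat 2.1.0, and estimated FPKM with Cufflinks 2.2.1. FPKM values below 0.1 were set to 0.1 by the authors, so 39.7% of values stand there, and the read number behind a gene is unknown. The spread between animals is thus the only error given, and 2 animals per group limit it. All columns carried a sample title (0 without a sample).

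Values were log2-transformed, and the 15210 of 30443 genes with 1 FPKM or more in any library were fitted with limma 3.58.1 in R 4.3.3 (lmFit, eBayes with trend), with Benjamini-Hochberg adjustment over all of them and a threshold of 0.05. The stimulation effect used the 4 libraries of a region. Regions were compared as contrasts of region means over all 20 libraries, and the difference of stimulation effects on differences within animals. Scripts were tested on simulated data. Other steps used Python 3.11.15, numpy 2.4.6, pandas 2.3.3, scipy 1.17.1, matplotlib 3.10.9 and Biopython 1.88.

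Per the sample titles, an animal gave 1 library in each region, and deviations of its libraries from the region means correlated at a mean r of 0.59 (regions 1 and 2), 0.21 (3 and 4), 0.03 (4 and 5) and 0.12 (3 and 5). The animal as a block is therefore given where it changed a call. One listed cell type marker is not reported here. The members and gene lists were chosen with earlier results of these data known. Named are all members, of each other list at most the 4 called genes with the largest log2 difference in a comparison, the 5 genes most like Lgals3, and markers where a result turns on them. Mertk, L1cam and the r of Gfap, Trem2 and the other astrocyte, microglia and macrophage markers were added after their values were seen. So were the sums of motor and sensory neuron markers and the genes most like Lgals3 within each tissue. The neuron and oligodendrocyte sums given for stimulation in region 1 were also added then. Alternatives were another pseudocount, other filters, quantile normalization, upper-quartile scaling, no trend, other sets of libraries, blocks, and each animal left out.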

Additional observations from a re-analysis of the deposited data

Results flagged for a closer look

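In region 2, the library of stimulated animal 2 was far from the other 3 for 2 members. Lgals3 stood at 13.9 FPKM there and at 0.620 to 1.54 FPKM in the other 3 libraries, a gap of 0.931 of the range of the group. Lgals3bp stood at 20.1 FPKM there and at 1.64 to 2.67 FPKM in the others, a gap of 0.944 of the range. The 5 detected members were searched in each region and in white matter as a whole, 30 groups in all. The flag was set at a gap that chance alone gives in about 1 in 20 groups. How often chance gives gaps as large as these was not computed. The same library had 275 FPKM in the sum of microglia and macrophage markers, against 35.9 to 41.9 FPKM in the others. The part of those cells in the 2 values was not tested.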

How the results depend on the processing

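The counts of members called between neighboring regions moved with the model, while Lgals1, Lgals3, Lgals8 and Lgals9 were called lower in white matter than in cord under every alternative run. Region 1 against region 2 called 1 member with log2(FPKM + 1) and 1 without a filter, among 6.32% and 2.29% of all genes. It called 0 on these regions alone (0%) and 4 with the animal as a replicate block (12.2%), against 2 and 8.61% in the report. Leaving out 1 animal gave 0 to 4, where 0.171% to 24.2% of all genes were called. Region 4 against region 3 called 0 without a trend and 0 without a filter, among 18.9% and 7.4% of all genes. It called 2 after quantile normalization and 2 after upper-quartile scaling (Lgals8 joined, among 31.8% and 30.3% of all genes). It called 2 with the animal as a block (Lgals1, 24%) and 3 on these regions alone with that block (Lgals1 and Lgals3bp, 29.7%). Leaving out 1 animal gave 0 to 3, among 3.44% to 32.3% of all genes, against 1 and 19.6% in the report. Region 5 against region 3 called 3 on these regions alone (Lgals1, Lgals3 and Lgals8, among 21.8%) and 3 with the block added (Lgals3bp in place of Lgals8, among 12.8%). It called 1 with the animal as a block in the full model (6.09%). Leaving out 1 animal gave 0 to 2, among 0.355% to 8.13% of all genes, against 0 and 4.32% in the report. Stimulation in region 1 called 0 to 1 without 1 animal. Leaving out animals uses fewer libraries. Otherwise the cause was not tested.

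Some uncalled differences changed sign. After quantile normalization and upper-quartile scaling, stimulation in region 3 gave 0.0008 and 0.0133 for Lgals3bp, 0.0272 and 0.0307 for Lgals8 and 0.0296 and 0.0382 for Lgals9. Region 4 minus region 5 gave 0.0247 and 0.013 for Lgals8 and 0.0492 and 0.12 for Lgals9, and the difference of effects for Lgals8 gave 0.11 and 0.11. Lgals3bp in region 5 gave -0.0018 after quantile normalization. Without 1 animal, the stimulation effect ran from -0.39 to 0.67 and -0.46 to 0.57 for Lgals1 in regions 3 and 4, -1.04 to 3.45 and -0.60 to 0.21 for Lgals3 in regions 2 and 3, and -0.27 to 0.15, -0.92 to 0.0714 and -0.26 to 0.35 for Lgals3bp in regions 3 to 5. It ran from -0.0728 to 0.59, -0.10 to 0.0185 and -0.28 to 0.0677 for Lgals8 in regions 2 to 4, and -0.54 to 0.24, -0.29 to 0.22, -0.21 to 0.11 and -0.29 to 0.17 for Lgals9 in regions 2 to 5. The difference of effects ran from -0.0262 to 0.67, -1.42 to 2.02, -2.15 to 0.16, -0.37 to 0.32 and -0.55 to 0.24 for Lgals1, Lgals3, Lgals3bp, Lgals8 and Lgals9. Lgals9 in region 4 minus region 5 ran from -0.16 to 0.0673.

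Scaling moved the median of all genes from -0.18 to -0.04 (quantile) in white matter minus cord, from -0.14 to -0.03 in region 4 minus 5, from 0.11 to -0.02 in region 5 minus 3, from 0.06 to -0.05 in region 1 minus 2 and from -0.13 to -0.02 in the difference of effects. Under quantile and upper-quartile scaling the split of higher and lower calls was 5054/6018 and 4707/6605 in white matter against cord (3808/7169 unscaled) and 943/841 and 1316/930 in region 1 against 2 (1043/267). It was 1925/2917 and 2115/2487 in region 4 against 3 (1031/1953), 195/275 and 329/299 in region 4 against 5 (142/1074) and 435/674 and 419/751 in region 5 against 3 (422/235). Without stimulated animal 2 the numbers called were 3674 in region 1 against 2 and 4909 in region 4 against 3.

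The number shared by a control and a stimulated animal names different animals. Deviations of same-numbered libraries correlated at -0.21, -0.10, -0.11, 0.32 and -0.16 in regions 1 to 5, which gives no pairing. That number as a replicate block called 0 members, and 0 genes in regions 1 to 4, 443 in region 5 and 17 for the difference of effects. Crossed pairs, tried after seeing the data, called 118 genes in region 4 and 0 in the others. The animal as a block changed no call of a member beyond those given here and in the report. FPKM carries no read number, so the depth behind Lgals5 and other low values is unknown.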
